A study of Chelonus formosanus with 6 samples.

Results

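The genes of starch, sucrose, glycogen and trehalose metabolism in heads of the braconid wasp Chelonus formosanus were taken as the assembled unigenes placed in the KEGG pathway of starch and sucrose metabolism or described as trehalose 6-phosphate, trehalase, glycogen, alpha-glucosidase, maltase or alpha-amylase proteins. Of 41986 unigenes 59 met this rule. Of these, 28 had their best database hit in a vertebrate and were left out, which left 31 members. The pathway label alone placed 14 of the members, the wording alone 4, and both 13. Members whose pathway label and description disagree are described last.

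Poly(A) RNA of heads was compared between 3 libraries of females and 3 of males, all labelled day 1. The labels name no treatment and no strain, and do not say whether a library came from 1 animal or a pool. The p-values therefore measure the spread between these libraries, which may be technical. Total counts ran from 17937390 to 19517887 per library.

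Insects carry much of their blood sugar as trehalose, a disaccharide of glucose that the fat body makes from UDP-glucose and glucose 6-phosphate and that trehalase splits in the tissues that use it. Glycogen, the branched glucose store of fat body and muscle, is built by glycogenin, glycogen synthase and branching enzyme and is degraded by glycogen phosphorylase and debranching enzyme. Amylases and maltases (alpha-glucosidases) cut dietary starch, sucrose and maltose to glucose. Adult parasitoid wasps are known to take nectar and honeydew.

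Words for cells of the head matched transcripts in every library. Summed TPM (the authors' transcript level, scaled for length and library size) was 10982 to 12605 for 15 unigenes matching opsin or arrestin. Among these were arrestin domain-containing proteins, a beta-arrestin, a phosphodiesterase subunit and a rhodopsin-like receptor. The olfactory coreceptor stood at 208.8 to 240.8 TPM in females and 90.7 to 91.8 TPM in males. Neuronal words (synaptotagmin, synapsin, elav) matched 13 unigenes, among them an extended synaptotagmin and CUGBP Elav-like unigenes. They summed to 469.2 to 510.2 TPM in females and 379.4 to 426.3 TPM in males. Unigenes with a vertebrate best hit took 3.14% to 3.73% of the counts of a library. The 28 pathway rows left out for such a hit summed to 91.9 to 105.5 TPM, and 12 of them were tested. In edgeR's quasi-likelihood test 0 of the 12 passed the adjusted threshold of 0.05, and 0 had an unadjusted p under it.

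Levels differed widely among the members. Together they summed to 3298, 3072 and 2920.2 TPM in females 1 to 3 and to 3019, 2848 and 3117 TPM in males 1 to 3, so the sexes overlapped in the total. By mean TPM over the 6 libraries 5 members were among the 1000 highest unigenes and 19 among the 5000 highest. The highest means were 636.6 TPM for a unigene named titin-like whose protein match is glycogenin-1, 596.2 TPM for glycogen phosphorylase, 340.2 TPM for UTP--glucose-1-phosphate uridylyltransferase, 316.9 TPM for phosphoglucomutase-2 and 150.4 TPM for a trehalase-like unigene. The first and the second of these, and likewise the third and the fourth, had ranges over libraries that overlapped.

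**Figure D1:**
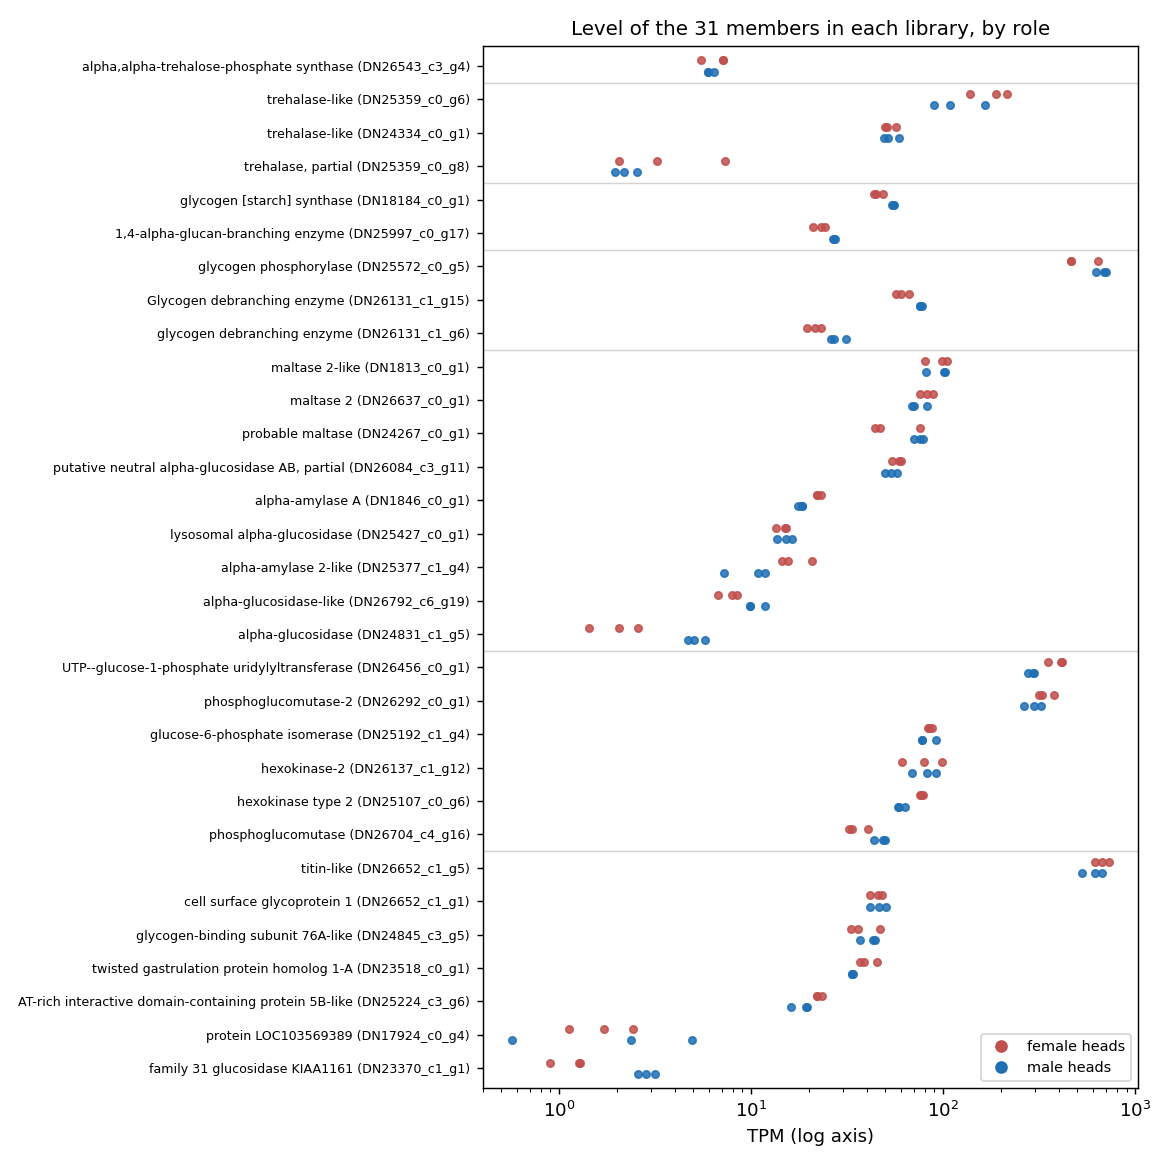
TPM of each of the 31 members in the 3 female (red) and 3 male (blue) head libraries on a log axis, with members grouped by role. Mean levels run from 2.0 TPM for the family 31 glucosidase KIAA1161 to 636.6 TPM for the titin-like unigene, a far wider range than that between the sexes for any member.

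After a filter on low counts 30 of the 31 members were tested. Of these 30, 6 (20%) were called, all 6 of them higher in male heads and 0 higher in female heads (edgeR's quasi-likelihood test, Benjamini-Hochberg adjusted p under 0.05 over all 21196 unigenes tested). Of all tested unigenes 2.8% were called, with 1.11% higher in males and 1.69% higher in females. These shares were not matched for level or for the spread within a sex, which was lower in the members (median SD of log2 CPM 0.129 against 0.195). The 6 members were an alpha-glucosidase, a family 31 glucosidase, both unigenes named glycogen debranching enzyme, glycogen synthase and phosphoglucomutase. An unadjusted p under 0.05 was found for 14 members, 10 with higher values in males and 4 with higher values in females, and for 12.0% of all unigenes tested. DESeq2's Wald test called 9 members higher in males and 2 higher in females. It called 3.85% of all unigenes, 1.69% higher in males and 2.16% higher in females. The members' median log2 difference (female minus male) was -0.11, against a median over all tested unigenes within 0.01 of 0.

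**Figure D2:**
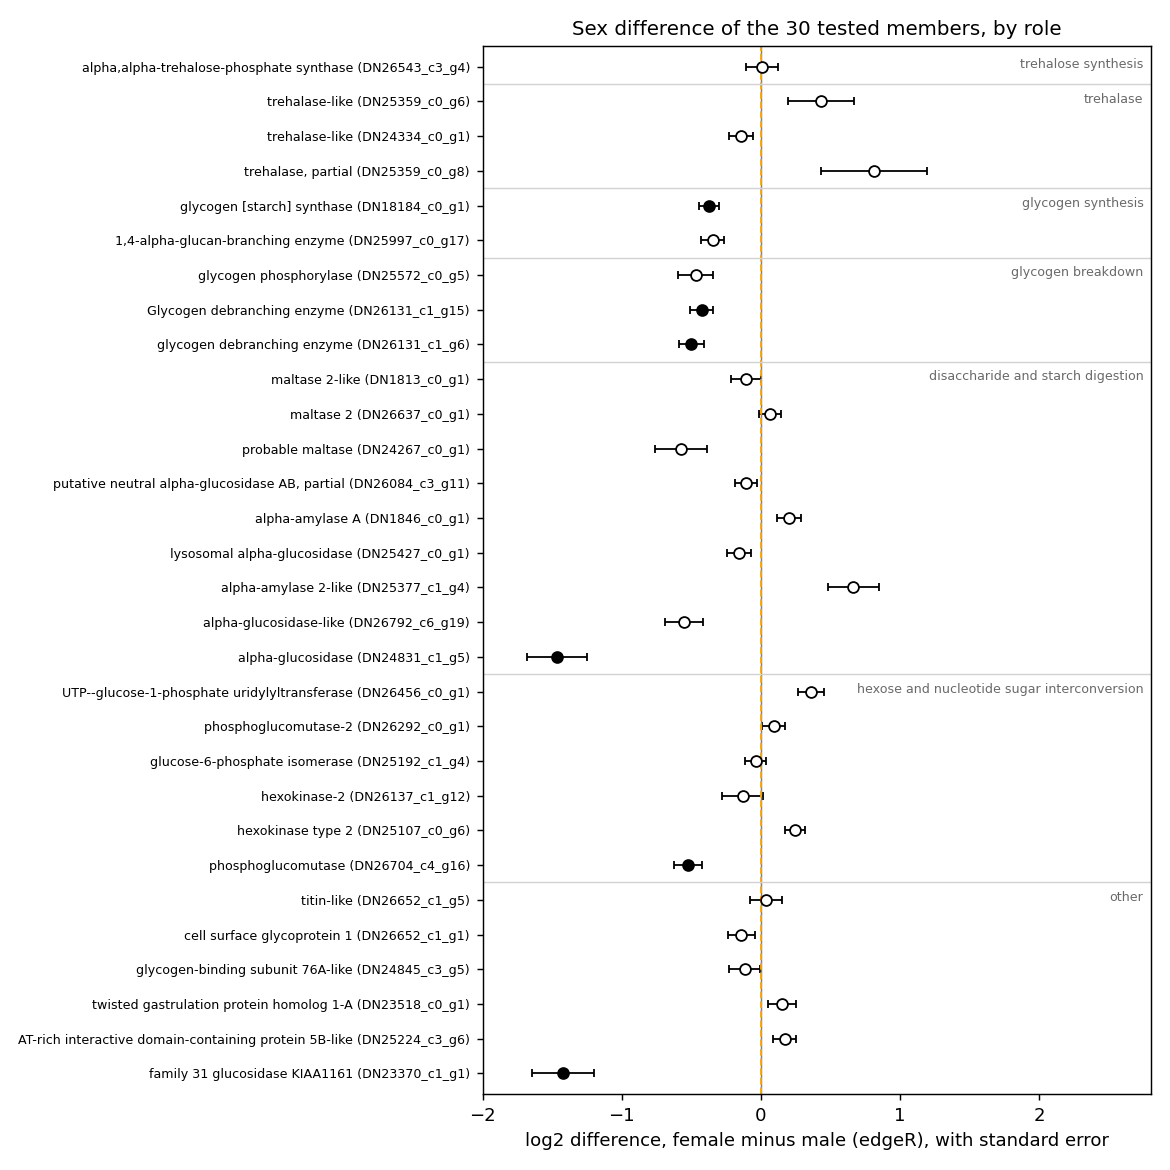
Log2 difference (female minus male) with its standard error for the 30 tested members, grouped by role. Filled points passed the adjusted p of 0.05, the dashed line is the median of all tested unigenes, and every filled point lies to the left of 0, between -1.46 and -0.37.

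All 5 unigenes named for enzymes of glycogen synthesis and breakdown had higher CPM (counts scaled to library size) in every male library than in any female library. Of these 5 unigenes 3 passed the test. The sexes did not overlap in 14 of the 30 tested members and in 17.3% of all tested unigenes. Every male lay above every female in 9 members and 8.5% of all unigenes, and every female above every male in 5 members and 8.77% of all unigenes.

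Glycogen synthase (TRINITY_DN18184_c0_g1), which lengthens the glucose chains, stood at 100.6, 92.5 and 92.0 CPM in females 1 to 3. In males 1 to 3 it stood at 122.8, 121.8 and 124.3 CPM. All 3 males lay above all 3 females, and the difference of -0.37 ± 0.07 (log2, SE) was 1.29-fold (adjusted p = 0.0165, edgeR). The call was lost in 4 of the 13 alternative settings, without female 2, female 3, male 1 or male 2. The 1,4-alpha-glucan-branching enzyme (TRINITY_DN25997_c0_g17), which adds the branches, had 48.9, 47.4 and 41.8 CPM in females and 57.9, 56.9 and 60.7 CPM in males. The sexes did not overlap, but the difference of -0.35 ± 0.08 did not pass edgeR's test (adjusted p = 0.0613) and passed DESeq2's (adjusted p = 0.0388).

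Debranching enzyme removes the branch points that phosphorylase cannot pass. The assembly held it as 2 unigenes of 1 assembly cluster, which may be pieces of a single gene. The longer one (TRINITY_DN26131_c1_g6, 5309 bases) stood at 99.1, 91.8 and 106.2 CPM in females and 153.8, 127.7 and 139.0 CPM in males. It was 1.42-fold higher in males (log2 -0.50 ± 0.09, adjusted p = 0.0118, edgeR). The shorter one (TRINITY_DN26131_c1_g15, 983 bases) stood at 38.2, 41.2 and 44.5 CPM in females and 55.4, 54.6 and 56.5 CPM in males. It was 1.34-fold higher in males (log2 -0.43 ± 0.08, adjusted p = 0.0175, edgeR). Per length the shorter unigene was 2.48 to 3.06 times the longer one, with no separation of the sexes in that ratio. The longer unigene lost its call without female 2 or male 1. The shorter one lost its call without female 1, female 2, male 1 or male 2.

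Glycogen phosphorylase (TRINITY_DN25572_c0_g5), which releases glucose 1-phosphate from glycogen, was the highest member with an enzyme of glycogen as its description. It had 1677, 1240.3 and 1213 CPM in females and 1935, 1735 and 2050.3 CPM in males. Female 1 lay close under the lowest male and well above the other females, and in TPM it lay above that male, at 638.4 against 622.3 TPM. The difference of -0.47 ± 0.13 did not pass with all libraries (adjusted p = 0.103, edgeR), while DESeq2 called it with the same libraries (adjusted p = 0.00442). Without female 1 it was -0.63 (adjusted p = 0.00387, edgeR). Phosphorylase stood at 10.4 to 13.2 times the TPM of glycogen synthase, and this ratio overlapped between the sexes.

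Muscle also stores and uses glycogen, and muscle markers moved in the same direction. All 21 unigenes matching troponin, tropomyosin, myosin heavy chain or myosin regulatory light chain were tested, among them a few non-muscle myosins. Of the 21, 5 were called higher in males and 0 higher in females (edgeR), and 17 had a log2 difference below 0. Their summed level was 18660, 14663 and 13889 TPM in females 1 to 3 and 20440, 19961 and 21786 TPM in males 1 to 3, with none of them at 0 in any library. Female 1 was the highest female in this sum, as it was for glycogen phosphorylase, glycogen synthase, phosphoglucomutase and probable maltase. For both debranching unigenes female 3 was the highest. Fat body words (vitellogenin, hexamerin, apolipophorin, arylphorin) matched 13 unigenes, of which 8 were tested, 2 were called higher in females and 1, the lipid carrier apolipophorin, in males. Their summed level overlapped between the sexes, at 6202 to 6921 TPM and 6139 to 6865 TPM. The part of muscle or fat body content in the differences of the glycogen genes was not tested, and in whole heads fewer cells of a type and less RNA per cell cannot be told apart.

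**Figure D3:**
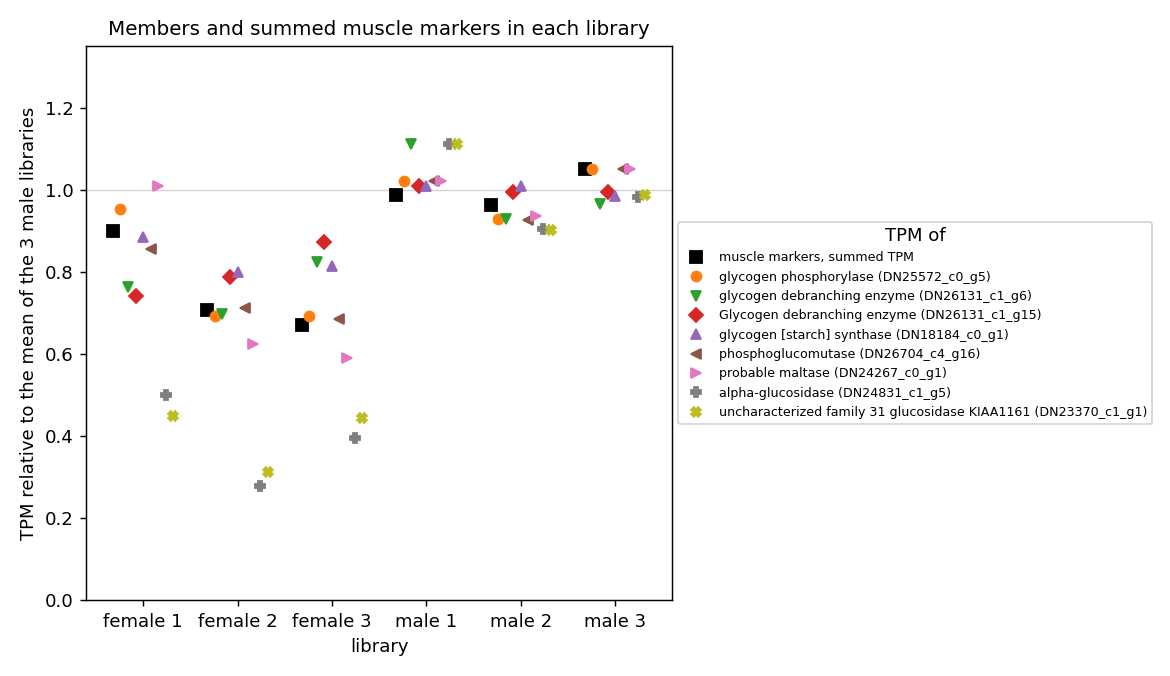
TPM of 8 members and of the summed muscle markers (black squares) in each library, each divided by its mean over the 3 male libraries. In females 2 and 3 the muscle sum is at 0.707 and 0.67 and glycogen phosphorylase at 0.693 and 0.692, while in female 1 they are at 0.9 and 0.952. Phosphoglucomutase is at 0.856, 0.711 and 0.686 and probable maltase at 1.01, 0.624 and 0.591 in females 1 to 3. In females 1 to 3 glycogen synthase is at 0.884, 0.8 and 0.813. The longer debranching unigene is at 0.764, 0.697 and 0.823 and the shorter at 0.741, 0.787 and 0.872. The alpha-glucosidase and the family 31 glucosidase are at 0.278 to 0.499 in all 3 females.

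The enzymes that interconvert glucose phosphates and UDP-glucose went in both directions. Phosphoglucomutase (TRINITY_DN26704_c4_g16), which links glucose 1-phosphate from glycogen to glucose 6-phosphate, had 69.0, 58.2 and 54.9 CPM in females and 88.3, 79.3 and 93.8 CPM in males. It was 1.44-fold higher in males (log2 -0.52 ± 0.10, adjusted p = 0.0183, edgeR), with no overlap. This call was lost without female 2, female 3, male 1 or male 3. Phosphoglucomutase-2 (TRINITY_DN26292_c0_g1), a related mutase that in mammals acts mainly on pentose phosphates, had 375.8 to 423.5 CPM in females and 345.2 to 394.6 CPM in males (log2 0.09 ± 0.08). The ratio of phosphoglucomutase to phosphoglucomutase-2 in TPM was 0.124, 0.0892 and 0.102 in females and 0.184, 0.136 and 0.168 in males.

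UTP--glucose-1-phosphate uridylyltransferase (TRINITY_DN26456_c0_g1) makes UDP-glucose, the donor for both glycogen and trehalose. It had 732.4, 733.4 and 614.5 CPM in females and 545.6, 508.2 and 567.7 CPM in males. Every female library lay above every male library, while the difference of 0.36 ± 0.09 did not pass with all libraries (adjusted p = 0.0777, edgeR). Without female 3 its adjusted p was 0.0273 (edgeR), and DESeq2 gave an adjusted p of 0.00827. Hexokinase type 2 (TRINITY_DN25107_c0_g6), which phosphorylates glucose, had 155.3 to 162.5 CPM in females and 127.3 to 140.9 CPM in males, without overlap (log2 0.25 ± 0.07, adjusted p = 0.126, edgeR). A second hexokinase, hexokinase-2 (TRINITY_DN26137_c1_g12), overlapped widely, with 88.7 to 140.3 CPM in females and 109.9 to 139.7 CPM in males. Glucose-6-phosphate isomerase (TRINITY_DN25192_c1_g4), the next step of glycolysis, had 240.6 to 247.5 CPM in females and 236.7 to 268.6 CPM in males (log2 -0.04 ± 0.07). Of the 6 members of this role 1 was called higher in males and none in females. Their TPM summed to 1048, 1041 and 938.4 in females and to 837.7, 871.2 and 847.2 in males, so that every female lay above every male. Within that sum the uridylyltransferase, which was not called, held 350.3 to 416.53 TPM in females and 274.55 to 297.16 TPM in males. The summed neuronal markers and the olfactory coreceptor, given above, were likewise higher in every female than in any male. Of 11 tested neuronal unigenes 1, synaptotagmin-1-like (TRINITY_DN24451_c0_g1), was called, higher in females (adjusted p = 0.00754, edgeR). The neuronal unigenes went in both directions, with 6 of the 11 at a log2 difference below 0 and a median of -0.04. The part of neuronal content in the values of this role was not tested. The 3 glycogen breakdown unigenes summed to 716.3, 544.1 and 553.1 TPM in females and to 794.7, 724.0 and 804.6 TPM in males, with every male above every female.

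Neither the trehalose synthase member nor any of the 3 trehalase members passed the test. The single synthesis enzyme, alpha,alpha-trehalose-phosphate synthase (TRINITY_DN26543_c3_g4), had 24.9, 33.1 and 32.5 CPM in females and 31.1, 28.9 and 30.1 CPM in males. Its log2 difference was 0.01 ± 0.12, and at a mean of 6.34 TPM it was the lowest of the enzymes of glycogen, trehalose and hexose phosphates other than the partial trehalase described next. The 3 trehalase unigenes summed to 196.3, 267.9 and 246.4 TPM in females and 169.0, 143.9 and 215.9 TPM in males.

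Most of that sum was 1 trehalase-like unigene (TRINITY_DN25359_c0_g6). It had 234.6, 368.9 and 303.4 CPM in females and 185.2, 161.8 and 325.6 CPM in males. Male 3 lay among the females, and female 1 lay between male 1 and male 3. Its coefficient of variation was 22.2% in females and 39.5% in males, and its difference of 0.43 ± 0.24 did not pass (adjusted p = 0.555, edgeR). Without male 3 the difference was 0.81 (adjusted p = 0.0296, edgeR). A partial trehalase of the same assembly cluster (TRINITY_DN25359_c0_g8) was far lower, at 4.34, 6.98 and 15.3 CPM in females and 4.38, 4.84 and 5.98 CPM in males. Its largest value came from female 3 alone, and the adjusted p was 0.437 (edgeR). Reads may have been split between these 2 unigenes. The other trehalase-like unigene (TRINITY_DN24334_c0_g1), whose closest reviewed protein is the honey bee trehalase, was steady, at 139.4 to 150.4 CPM in females and 147.6 to 174.7 CPM in males (log2 -0.14 ± 0.08). Per length the first trehalase-like unigene stood at 1.74 to 4.23 times the steady one.

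Of 9 members named for enzymes that digest disaccharides or starch, 1 passed the test. It was an alpha-glucosidase (TRINITY_DN24831_c1_g5) with 3.79, 2.15 and 2.99 CPM in females and 9.03, 7.31 and 8.28 CPM in males. It was 2.76-fold higher in males (log2 -1.46 ± 0.22, adjusted p = 0.00372, edgeR), the largest difference of any member. It was also the lowest of this role in level, with a mean of 3.58 TPM against 94.4 TPM for maltase 2-like, the highest. The call held in all 13 alternative settings, with adjusted p from 2.77e-07 to 0.0229.

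Other enzymes that cut sucrose and maltose did not pass edgeR's test with all libraries. Maltase 2-like (TRINITY_DN1813_c0_g1) had 116.2 to 149.0 CPM in females and 128.4 to 155.6 CPM in males (log2 -0.11 ± 0.11). Probable maltase (TRINITY_DN24267_c0_g1) had 126.8, 74.1 and 71.3 CPM in females and 135.6, 125.1 and 144.2 CPM in males. Female 1 lay inside the male range and apart from the other 2 females. The difference was -0.57 ± 0.19 (adjusted p = 0.194, edgeR), and -0.89 without female 1 (adjusted p = 0.000215, edgeR). Alpha-glucosidase-like (TRINITY_DN26792_c6_g19) had 9.21 to 11.6 CPM in females and 14.5 to 17.2 CPM in males, without overlap (log2 -0.55 ± 0.14, adjusted p = 0.0663 by edgeR and 0.0252 by DESeq2).

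The 2 alpha-amylases, which cut starch and glycogen, had higher values in females, the reverse of these glucosidases. Alpha-amylase 2-like (TRINITY_DN25377_c1_g4) had 27.1, 20.7 and 18.9 CPM in females and 16.4, 15.1 and 10.5 CPM in males (log2 0.67 ± 0.18, adjusted p = 0.107, edgeR; 0.011 by DESeq2). Alpha-amylase A (TRINITY_DN1846_c0_g1) had 26.8 to 28.2 CPM in females and 22.8 to 24.8 CPM in males (log2 0.20 ± 0.09, adjusted p = 0.397, edgeR). Neither passed edgeR's test, although in both the sexes did not overlap.

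Digestive enzymes are made in the midgut and in glands of the head. Midgut words (trypsin, chymotrypsin, peritrophin, aminopeptidase N) matched 20 unigenes, of which 12 were tested and 1 was called, higher in females. Of the 12 tested, 5 had a log2 difference below 0, and the words also matched an antichymotrypsin and a chymotrypsin inhibitor. Their summed level was 1013 to 1092 TPM in females and 811.6 to 875.6 TPM in males. Most of it was aminopeptidase N (TRINITY_DN26766_c2_g4), at 693.9 to 823.5 TPM in females and 547.7 to 661.7 TPM in males. In CPM that unigene overlapped between the sexes (log2 0.13, adjusted p = 0.658, edgeR). Salivary and royal jelly words matched 6 unigenes, of which 4 were tested, all 4 overlapping between the sexes and not called (edgeR, adjusted p from 0.481 to 0.973). The 6 summed to 99.8 to 112.1 TPM in females and 77.6 to 78.6 TPM in males. That sum is in TPM, while the overlap of single unigenes was read in CPM, so the 2 scales differ. It includes 2 untested unigenes, each under 0.75 CPM in every library. In TPM these stood at 6.59 to 10.39 and 5.76 to 16.05 in females, against 0 to 2.47 and 0 to 3.29 in males. Part of the difference in the sum therefore lies in these 2 unigenes of very low count. The part of gut or gland content in the values of the amylases and glucosidases was not tested.

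The remaining members of this role are known mainly from other compartments. Lysosomal alpha-glucosidase (TRINITY_DN25427_c0_g1), which degrades glycogen in lysosomes, had 42.9 to 47.7 CPM in females and 47.6 to 55.1 CPM in males. Neutral alpha-glucosidase AB (TRINITY_DN26084_c3_g11), which trims glucose from new glycoproteins, had 137.5 to 144.4 CPM in females and 138.1 to 159.8 CPM in males. Maltase 2 (TRINITY_DN26637_c0_g1), given the ortholog label of an amino acid transporter subunit of the same fold, had 125.2 to 138.2 CPM in females and 120.5 to 137.9 CPM in males. All 3 overlapped between the sexes, with log2 differences of -0.16, -0.10 and 0.06.

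Another 7 members were placed by the pathway label, or by the word glycogen, with descriptions outside the roles above. The family 31 glucosidase KIAA1161 (TRINITY_DN23370_c1_g1), whose relatives include the lysosomal enzyme, had 1.92, 1.36 and 1.89 CPM in females and 5.08, 4.11 and 4.70 CPM in males. It was 2.68-fold higher in males (log2 -1.42 ± 0.22, adjusted p = 0.00527, edgeR), and this call also held in all 13 settings. Its fold and its low level, a mean of 2.0 TPM, were close to those of the alpha-glucosidase, although the 2 carry different glycosidase domains (Glyco_hydro_31 and Alpha-amylase).

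**Figure D4:**
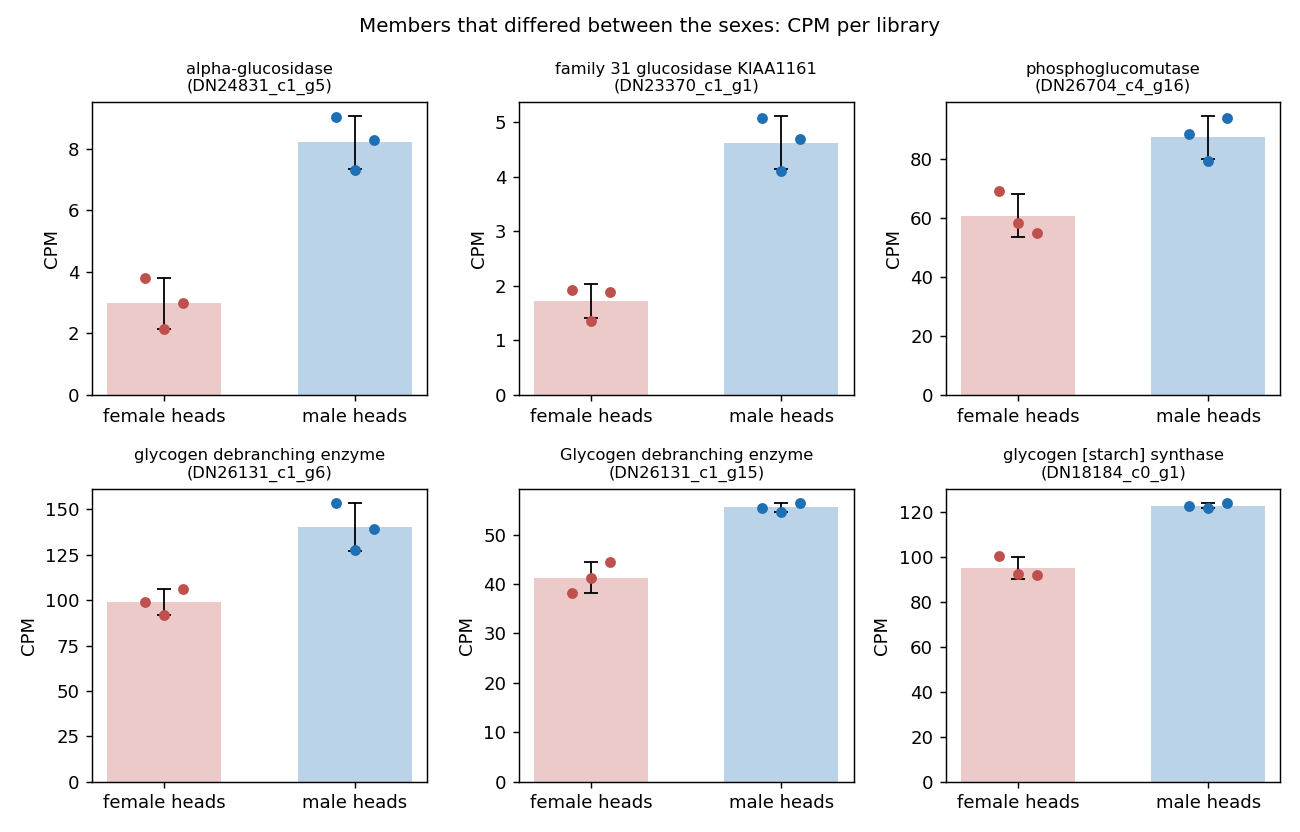
CPM of the 6 members that passed the test, in 3 female (red) and 3 male (blue) head libraries, with bars at the mean and error bars of 1 SD on axes that start at 0. In every panel all male points lie above all female points, with folds from 1.29 for glycogen synthase to 2.76 for alpha-glucosidase.

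A pair of unigenes of 1 assembly cluster carried the ortholog label of glycogenin, the protein that primes a new glycogen particle. The titin-like one (TRINITY_DN26652_c1_g5) held the glycosyltransferase domain and had 721.5, 672.0 and 602.1 CPM in females and 650.0, 555.7 and 740.8 CPM in males (log2 0.04 ± 0.11). The one named cell surface glycoprotein 1 (TRINITY_DN26652_c1_g1) held no domain call and had 82.4 to 91.9 CPM in females and 85.8 to 109.7 CPM in males. Glycogen-binding subunit 76A-like (TRINITY_DN24845_c3_g5), which in Drosophila carries the name of a subunit that brings protein phosphatase 1 to glycogen, had 98.0, 75.4 and 71.1 CPM in females and 86.0 to 93.0 CPM in males. All 3 overlapped between the sexes.

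In the last 3 members the description did not name the enzyme of the ortholog label. An AT-rich interactive domain-containing protein 5B-like unigene (TRINITY_DN25224_c3_g6), named for a DNA-binding domain, carried the label of hexokinase and had 81.9 to 88.7 CPM in females and 67.7 to 79.2 CPM in males (log2 0.17 ± 0.08, adjusted p = 0.458, edgeR). A twisted gastrulation homolog (TRINITY_DN23518_c0_g1), named for a secreted regulator of growth factor signalling, carried that of glucose-6-phosphate isomerase and had 31.6 to 39.5 CPM in females and 30.9 to 32.0 CPM in males. An uncharacterized protein (TRINITY_DN17924_c0_g4) with the same label had at most 0.481 CPM in a library and was the 1 member not tested.

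Domains, which the rule did not read, were shared in part with unigenes outside the members. Only the first domain listed for a unigene was counted. The Alpha-amylase domain was called in 9 unigenes without a vertebrate hit, of which 8 were members and 1 an amino acid transport protein. The glycosyltransferase domain Glyco_transf_8, held by the titin-like member, was called in 3 unigenes, of which 1 was a member. UDPGP and CBM_21 were called in 2 each, of which 1 each was a member. All 3 Trehalase, both Hexokinase_2 and the 1 Phosphorylase unigene were members. Family 31 glycosidases counted 4, of which 3 were members, and the fourth (TRINITY_DN26523_c0_g1) had 95.6 to 111.1 CPM in females and 105.5 to 111.0 CPM in males. For the 30 tested members the median within-sex SD of log2 CPM was 0.129, against 0.195 for all tested unigenes. Of these members 23 lay under the latter.

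Among genes around the pathway 3 passed the test. Of 21 unigenes named facilitated trehalose transporter, which carry trehalose across membranes, 18 were tested, of which 2 passed in the female direction and 0 in the male direction. TRINITY_DN24043_c0_g3 had 57.0, 50.7 and 45.9 CPM in females and 25.7, 22.8 and 23.5 CPM in males (2.13-fold, adjusted p = 0.000154, edgeR). TRINITY_DN26374_c1_g12 had 154.1, 164.7 and 148.5 CPM in females and 84.3, 79.4 and 83.7 CPM in males (1.89-fold, adjusted p = 4.57e-05, edgeR). Both were named from their best database hit, and which sugar each carries is not given in the files. Of 3 tested unigenes of insulin signalling, an insulin-like peptide (TRINITY_DN22714_c0_g3), a hormone that favours sugar storage in insects, was higher in males. It had 12.6, 14.7 and 11.7 CPM in females and 19.1, 19.0 and 19.4 CPM in males (1.48-fold, adjusted p = 0.031, edgeR). The 6 subunits of phosphorylase b kinase and cAMP-dependent protein kinase, the cascade that activates phosphorylase, did not pass. Neither did 6-phosphofructokinase, glucose-6-phosphate 1-dehydrogenase or the hexosamine enzyme glutamine--fructose-6-phosphate aminotransferase.

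The authors' deposited table marked 2 members as significant, the alpha-glucosidase (log2 -1.46, FDR 5.25e-07) and the family 31 glucosidase (log2 -1.41, FDR 1.32e-05). In the authors' deposited table no unigene with an absolute log2 fold change under 1 is marked significant. Its FDR was under 0.05 for 9 members, among them all 6 called here. The other 3 in the authors' deposited table were glycogen phosphorylase (FDR 0.0297), alpha-amylase 2-like (FDR 0.0233) and UTP--glucose-1-phosphate uridylyltransferase (FDR 0.0437).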

How the data were processed

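Per the labels' protocols, Trizol RNA was poly(A)-selected, sequenced in pairs on an Illumina NovaSeq, cleaned with Cutadapt and assembled with Trinity 2.4.0, taking the longest transcript of a cluster as unigene. The sources used here do not name the counter, the annotation steps or the test behind the authors' fold changes. The deposited expected counts, estimated by the authors and not normalized, were rounded; 8.81% to 9.5% of values per library were not whole. Deposited TPM values, scaled by the authors for length and library, served to describe levels. The authors' deposited log2 fold change, p-value and FDR were only quoted. Unigene length is the other deposited column used.

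Counts were tested with edgeR 4.0.16 (R 4.3.3; TMM, filterByExpr with a minimum count of 10 and total of 15, quasi-likelihood test, Benjamini-Hochberg threshold 0.05) over all unigenes, without replicate pairing. CPM divide counts by the library total and TMM factor. That factor was 1.006 to 1.029 in females and 0.9684 to 0.9981 in males, and it was not applied to TPM. The species came from the description, or else from the reviewed-protein hit. DESeq2 1.42.0 was an alternative. The fit was tested on simulated data. The biological coefficient of variation was 14.49%. Unigenes can split or merge genes, and strand was not stated. Members, roles, marker and neighbour lists were chosen with earlier results of these data known. The naming rule (called members and, in each role, the member highest in TPM and that with the smallest p) gave 13; the other members were described after their values were seen. No column lacked a sample (0). Plots used matplotlib 3.10.9.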

Additional observations from a re-analysis of the deposited data

How the results depend on the processing

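The 6 members called higher in males kept their direction in all 13 alternative settings. With DESeq2 size factors, no filter, a stricter filter (mean of at least 50 counts), or vertebrate hits left out, 6 were called; DESeq2's Wald test called 9. Leaving out a library gave 2 to 7 higher in males, 0 to 1 higher in females, and 357 to 688 unigenes in all against 593. Summing the 2 debranching unigenes gave -0.48 (log2). The count was 2 without female 2 and 2 without male 1, and these 2 were the alpha-glucosidase and the family 31 glucosidase, the members called in every setting. With a log2 difference of at least 1 the same 2 remained, of 271 unigenes in all. Higher in females were 2 by DESeq2, and 1 with the replicate block (alpha-amylase 2-like, adjusted p = 0.0213, edgeR). The replicate block gave 576 unigenes. Deviations of same-numbered libraries correlated at -0.0699 to -0.00904, and each female library correlated best with a male library of another number. This gave no sign that the numbers pair the libraries, but correlations this weak cannot exclude it. Summed TPM without the untested member moved by less than the SD between libraries.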
